A study of Arabidopsis thaliana with 4 samples.

Results

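The GASA genes of Arabidopsis thaliana (named after GAST1, a gibberellin-stimulated transcript of tomato) encode small secreted peptides with a cysteine-rich end. Described here are 10 of them, taken by locus identifier out of 32678 loci in the deposited table. They are GASA1 (AT1G75750), GASA2 (AT4G09610), GASA3 (AT4G09600), GASA4 (AT5G15230), GASA5 (AT3G02885), GASA6 (AT1G74670), GASA9 (AT1G22690), GASA10 (AT5G59845), GASA11 (AT2G18420) and GASA14 (AT5G14920). All 10 have a row in the table. RNA of whole plants was sequenced from wild type (WT) and from 35S:TEM1, in which the viral 35S promoter, active in most plant tissues, drives TEM1, a RAV-family transcription factor known as a repressor of flowering. Each genotype had 2 samples, and each sample pooled 20 plants that were 10 days old, grown in long days (LD) at 22 °C and taken at zeitgeber time 18. The labels name no transgenic line and no separate growth rounds, and each p-value therefore reflects the spread of these pools alone, which may be technical.

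Gibberellins are growth hormones that promote germination, elongation and flowering. The enzyme GA3OX1 makes their bioactive forms, the GID1 receptors bind them, and the bound receptors target DELLA proteins, which restrain growth, for degradation. Many GASA genes are known to respond to gibberellin, some upwards and some downwards, and several also respond to abscisic acid or brassinosteroids, so the family is no single readout of the hormone. TEM1 is known to repress GA3OX1, and the question here is how the GASA genes stood in plants in which GA3OX1 had fallen.

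The coding sequences show what the members share. In each of the 10, the last 59 or 60 codons before the stop hold 12 cysteine codons, and 8 of the 10 have the same spacing between them. GASA10 has 1 extra codon between the eighth and ninth cysteine, and GASA14 has 1 extra codon between the tenth and eleventh. The stretch is printed for the 6 members with enough signal to be tested and for GASA11, the closest relative of GASA1, because it is the part by which these peptides are recognised. It runs 5′ to 3′ from the first of these cysteine codons to the last codon before the stop, from RefSeq's TAIR10.1 assembly, with cysteine codons in capitals.
GASA1 (chromosome 1, minus strand, coding bases 118 to 294): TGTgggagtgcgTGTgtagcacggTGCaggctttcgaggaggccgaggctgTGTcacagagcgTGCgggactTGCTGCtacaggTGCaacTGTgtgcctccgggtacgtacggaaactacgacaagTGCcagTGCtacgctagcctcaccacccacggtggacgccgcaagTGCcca
GASA11 (chromosome 2, plus strand, coding bases 106 to 282): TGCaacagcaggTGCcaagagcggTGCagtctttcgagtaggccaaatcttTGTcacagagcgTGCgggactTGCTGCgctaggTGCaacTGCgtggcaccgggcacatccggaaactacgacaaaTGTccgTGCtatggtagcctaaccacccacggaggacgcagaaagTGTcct
GASA4 (chromosome 5, plus strand, coding bases 142 to 318): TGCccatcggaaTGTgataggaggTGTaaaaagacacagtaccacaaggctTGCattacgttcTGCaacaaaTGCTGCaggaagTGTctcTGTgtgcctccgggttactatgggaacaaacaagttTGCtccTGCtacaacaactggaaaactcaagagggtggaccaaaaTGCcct
GASA5 (chromosome 3, minus strand, coding bases 115 to 291): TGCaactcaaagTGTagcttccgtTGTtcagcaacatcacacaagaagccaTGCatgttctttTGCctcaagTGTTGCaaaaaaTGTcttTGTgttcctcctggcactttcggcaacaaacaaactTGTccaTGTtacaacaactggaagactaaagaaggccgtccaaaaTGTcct
GASA6 (chromosome 1, plus strand, coding bases 127 to 303): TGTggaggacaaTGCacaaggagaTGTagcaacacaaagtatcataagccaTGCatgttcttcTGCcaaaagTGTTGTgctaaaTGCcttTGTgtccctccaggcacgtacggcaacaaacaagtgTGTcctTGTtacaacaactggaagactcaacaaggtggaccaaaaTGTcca
GASA9 (chromosome 1, plus strand, coding bases 181 to 357): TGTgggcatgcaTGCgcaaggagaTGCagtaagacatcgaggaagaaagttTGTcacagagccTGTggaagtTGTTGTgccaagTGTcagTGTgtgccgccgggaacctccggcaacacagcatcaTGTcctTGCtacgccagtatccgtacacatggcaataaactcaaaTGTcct
GASA14 (chromosome 5, plus strand, coding bases 646 to 825): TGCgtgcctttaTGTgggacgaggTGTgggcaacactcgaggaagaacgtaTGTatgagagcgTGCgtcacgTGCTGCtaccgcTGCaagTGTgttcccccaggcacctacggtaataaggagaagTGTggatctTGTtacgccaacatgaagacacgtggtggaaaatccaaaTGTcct

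Outside this stretch the members differ in length. GASA14 has 275 codons before the stop, against 89 to 119 in the other 9, so most of its coding sequence lies before the cysteine-rich end. Over the stretch, the 45 pairs of members were 50.8% to 87.6% identical in bases, with a median of 58.2%. The closest pair was GASA2 and GASA3, which lie side by side on chromosome 4 (87.6%), followed by GASA1 and GASA11 (78.5%), GASA5 and GASA6 (73.2%) and GASA4 and GASA6 (70.1%). The longest run of identical bases in the exons of any pair was 35, in GASA2 and GASA3, and 27 in GASA1 and GASA11. Whether the authors' counting split reads between such pairs was not tested.

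The transgene was visible in the data. TEM1 (AT1G25560) had 784 and 827 RPKM in 35S:TEM1 replicates 1 and 2, and 16.3 and 30.3 in the WT replicates. RPKM is a read number scaled to gene length and library size, so levels of different genes can be compared. The low values imply library totals of 20.2 to 30.4 M reads, an estimate. Both root markers (8 of 10 tested) and leaf epidermis and guard cell markers (10 of 10 tested) were present, which matches the label of whole plants. Among these genes RHD6, a root hair gene, was the one listed at 0 in a sample, WT replicate 1.

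The 10 genes spanned a wide range of levels. In WT the order began with GASA1, at 502 and 560 RPKM. GASA4 (273 and 220) and GASA6 (288 and 183) followed and overlapped each other, and GASA14 stood at 90.5 and 75.6. GASA9 had 28.5 and 29.2 and GASA5 8.22 and 7.70, and each of these lay apart from its neighbours in the order. The same order of means held in 35S:TEM1, but there GASA4 lay above GASA6 in both samples.

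Tests were run on the 17746 genes whose 4 samples averaged 1 RPKM or more, a filter that 6 of the 10 members passed. Among these genes the rank by mean RPKM was 115 for GASA1, 339 for GASA4 and 511 for GASA6. Those 6 had more than 6 RPKM in every sample of both genotypes. GASA10 stood at 0.345 to 0.577 RPKM in the 4 samples, which corresponds to 5 to 8 reads a sample. GASA2 was seen as 1 read, in WT replicate 2, and GASA3 as 1 read in 35S:TEM1 replicate 1 and 1 in WT replicate 1. GASA11 was listed at 0 in all samples, which at 3 reads allows a level of up to 0.167 to 0.251 RPKM depending on the sample. Differences in these 4 genes were not detectable at this depth. GASA11 and GASA1 thus share 78.5% of the bases of the cysteine-rich stretch and stood at opposite ends of the range.

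**Figure D1:**
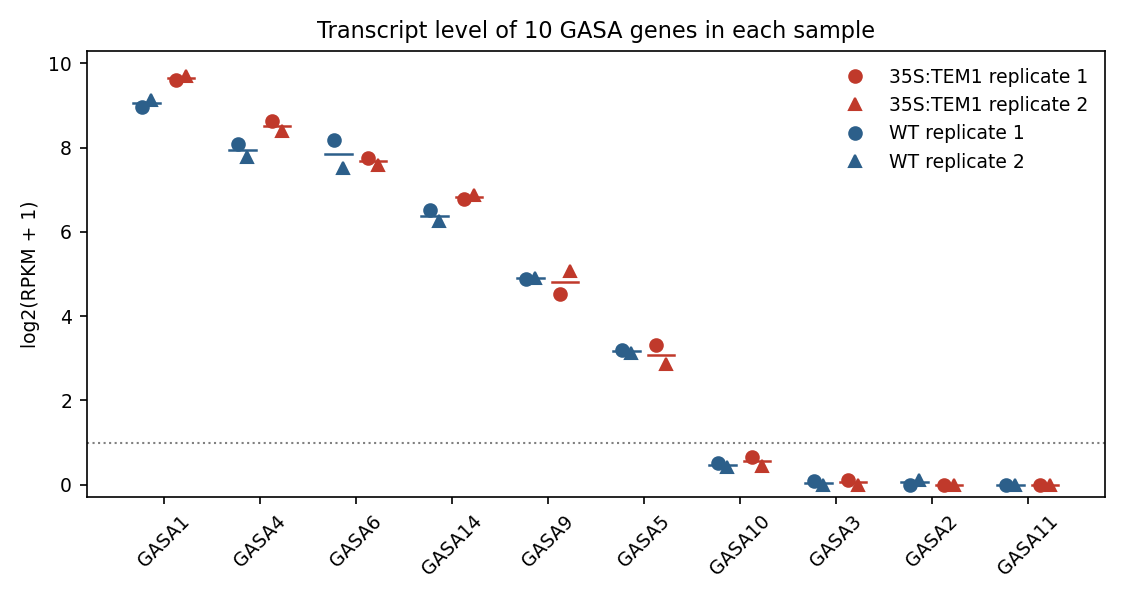
Level of each of the 10 GASA genes in each sample, as log2(RPKM + 1), in order of mean level. Circles are replicate 1, triangles replicate 2, short lines the mean of 2 samples, and the dotted line marks an RPKM of 1. GASA1, GASA4 and GASA14 lie higher in both 35S:TEM1 samples, while the groups overlap in GASA6, GASA9 and GASA5.

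GASA1, GASA4 and GASA14 rose in 35S:TEM1, to 1.37 to 1.52 times the WT mean, and no tested member was called lower. Across all tested genes 18.3% were called higher and 7.37% lower, together 25.7%, by limma at an adjusted p under 0.05, on log2(RPKM + 1). Of the 6 tested members 3 were called higher and 0 lower, with 0 lower also at an unadjusted p under 0.05. With so few members these counts are a description and are not evidence about the family. The median log2 fold change (35S:TEM1 minus WT) of the 6 was 0.18, against 0.12 over all tested genes. The background depends on the scaling: 10.9% of genes were higher and 13.7% lower once samples were set to equal medians, and 11.4% and 10.5% with quantile normalization.

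GASA1, annotated as regulated by gibberellin and brassinosteroids in opposite directions, had 781 and 834 RPKM in 35S:TEM1 replicates 1 and 2 and 502 and 560 in WT replicates 1 and 2. Both 35S:TEM1 samples lay above both WT samples. Mean levels of 807 ± 37.2 and 531 ± 41.4 RPKM (SD, n = 2 each) gave a ratio of 1.52. The log2 fold change was 0.60 ± 0.09 SE (limma adjusted p = 0.00574, 95% confidence interval 0.39 to 0.82), which is 0.49 above the median of all tested genes. Counting error is small here, at 0.986% for the roughly 10282 reads of the sample with fewest, so the spread between samples sets the precision. The call held with equal sample medians (0.44, adjusted p = 0.0245) and was lost without 35S:TEM1 replicate 2 (0.56, adjusted p = 0.0538), in a range of adjusted p from 0.000947 to 0.0538 over 13 alternatives.

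GASA4, annotated as promoting gibberellin responses and as having redox activity, had 393 and 338 RPKM in 35S:TEM1 and 273 and 220 in WT. The groups did not overlap, and the lower 35S:TEM1 sample was replicate 2. Mean levels were 365 ± 39.3 against 247 ± 36.9 RPKM (SD, n = 2 each), 1.48 times as high, with a log2 fold change of 0.57 ± 0.13 SE (limma adjusted p = 0.0231). The call was lost with equal sample medians (0.41, adjusted p = 0.0684) and without 35S:TEM1 replicate 1 (0.46, adjusted p = 0.136). Adjusted p values over its alternatives ran from 0.00119 to 0.136.

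GASA14, annotated as acting in growth downstream of gibberellin and DELLA proteins and in stress resistance through lower reactive oxygen, had 109 and 117 RPKM in 35S:TEM1 and 90.5 and 75.6 in WT. Again both 35S:TEM1 samples were the higher ones. On average it had 113 ± 5.63 RPKM against 83.1 ± 10.6 (SD, n = 2 each), 1.37 times as much, with a log2 fold change of 0.45 ± 0.11 SE (limma adjusted p = 0.0271). The call was lost with equal sample medians (0.29, adjusted p = 0.119) and without 35S:TEM1 replicate 1 (0.50, 0.0938) or replicate 2 (0.40, 0.141). The lowest adjusted p among its alternatives was 0.00704.

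GASA6, known as a promoter of seed germination downstream of gibberellin and abscisic acid, had 216 and 192 RPKM in 35S:TEM1 and 288 and 183 in WT. The 2 WT samples lay on either side of both 35S:TEM1 samples. Its log2 fold change was -0.17 ± 0.20 SE (limma adjusted p = 0.56), with a 95% confidence interval from -0.66 to 0.32, so the data allow a fall or a rise. The WT sample used decides the value: it was 0.15 without WT replicate 1 and -0.50 without WT replicate 2, where GASA6 was called lower (adjusted p = 0.0154). In the reference, 22.6% of its exon length lies under a gene of the opposite strand, AT1G74675, and reads of the 2 may not have been told apart.

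GASA9 had 22.1 and 32.9 RPKM in 35S:TEM1 and 28.5 and 29.2 in WT. The 35S:TEM1 samples lay below and above the WT pair, and the log2 fold change was -0.09 ± 0.18 SE (limma adjusted p = 0.726, 95% confidence interval -0.52 to 0.34). GASA5, annotated in seedling thermotolerance and known as a repressor of flowering, had 8.90 and 6.24 against 8.22 and 7.70. It too had overlapping groups, with a log2 fold change of -0.08 ± 0.16 SE (limma adjusted p = 0.736, 95% confidence interval -0.47 to 0.31). For GASA5 the fewest reads were about 161 in a sample, a counting error of 7.89%. Values of both genes took the opposite sign without 1 of the 35S:TEM1 samples (0.19 for GASA9 without replicate 1, 0.14 for GASA5 without replicate 2).

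**Figure D2:**
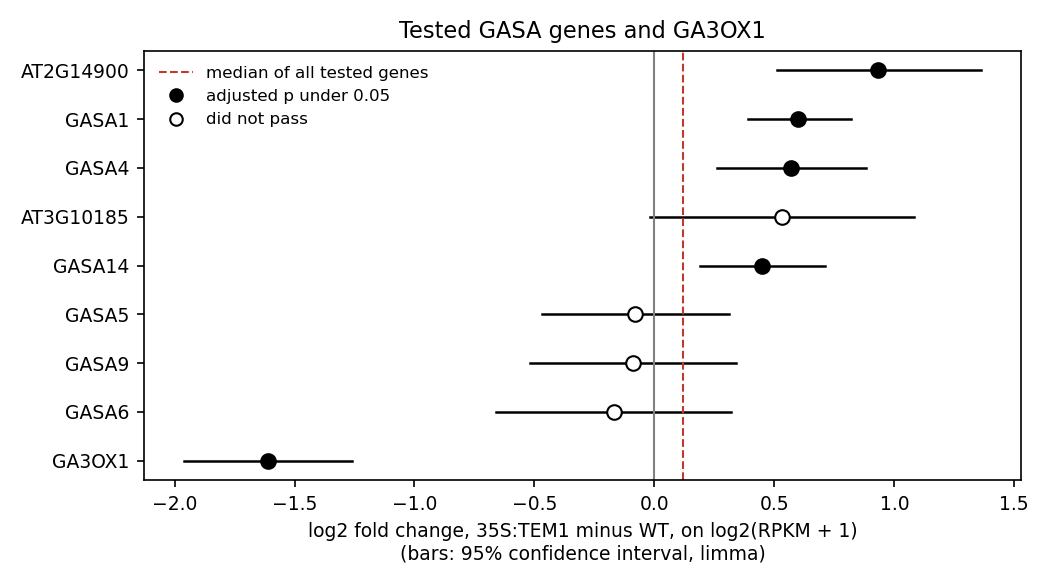
Log2 fold change, 35S:TEM1 minus WT, of the 8 tested GASA genes, 2 of them named by locus, and of GA3OX1, with 95% confidence intervals from limma. Filled points passed an adjusted p of 0.05 and the dashed line is the median of all tested genes (0.12). GASA1, GASA4 and GASA14 lie between 0.45 and 0.60, GASA5, GASA6 and GASA9 between -0.17 and -0.08, and GA3OX1 at -1.61.

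The separation of groups was common in these data. In 3 of the 6 tested members both 35S:TEM1 samples lay above both WT samples and in 0 below, where 47.4% of all tested genes lay above and 20.7% below (68.0% in either direction). The members' share above is close to this background. In bulk samples, more RNA per cell and more cells that express a gene cannot be told apart, for these genes or any other. In the same samples all 8 tested root markers were called higher, where 18.3% of all tested genes were. PRP3, CASP2 and EXPA7 had WT means under 1 RPKM (0.845, 0.555 and 0.356). They passed the filter only through 35S:TEM1, so their direction was built in. All 10 listed root markers summed to 81.9 to 88.1 RPKM in 35S:TEM1 against 36.6 to 39 in WT. Most of this sum was SCR, PHO1 and SHR in both genotypes. Of 10 leaf epidermis and guard cell markers 3 were called lower, 0 higher and 7 did not pass, where 7.37% of all tested genes were called lower. Their summed level was 309 to 329 against 419 to 474 RPKM. Most of it was PDF1, with 178 and 205 RPKM in 35S:TEM1 and 308 and 279 in WT. Of 4 trichome markers 3 were called lower (5.27 to 6.03 against 14.9 to 16.0 RPKM summed). Among these 4, GL1 and GL3 had 35S:TEM1 means under 1 RPKM (0.972 and 0.716) and passed the filter only through WT. Of 7 dividing cell markers 0 passed in limma, with 2 higher at an unadjusted p under 0.05 (94.3 to 99.8 against 75.5 to 94.8 RPKM summed). The part of these cell types in the GASA values was not tested.

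**Figure D3:**
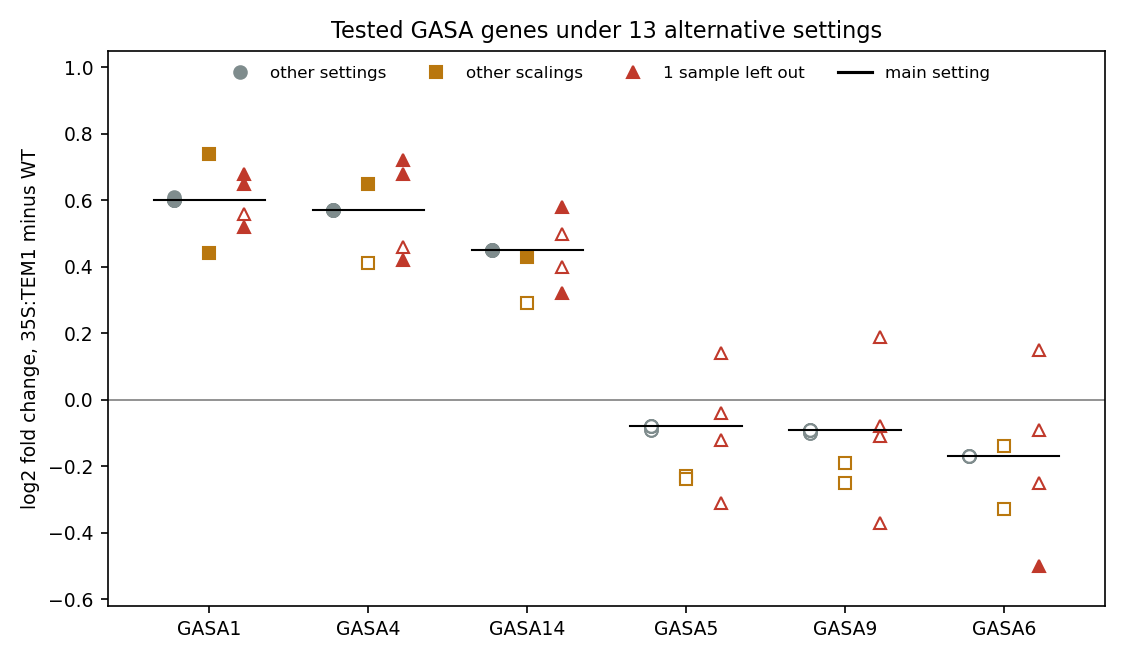
Log2 fold change, 35S:TEM1 minus WT, of the 6 tested GASA genes under 13 alternative settings, with the main value as a black line. Filled symbols passed an adjusted p of 0.05, triangles leave out 1 sample, squares use another scaling and circles another setting. GASA1, GASA4 and GASA14 stayed between 0.29 and 0.74 in each of the 13, while GASA5, GASA6 and GASA9 took both signs.

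The summed level of the 10 genes was higher in both 35S:TEM1 samples. It was 1530.8 and 1520.5 RPKM there and 1189.8 and 1076.9 in WT, with means of 1526 ± 7.30 and 1133 ± 79.8 (SD, n = 2 each) and a ratio of 1.35. With equal sample medians the ratio was 1.2. GASA1, GASA4 and GASA14 were also summed apart. They were picked because they were called higher in these same data, so the separation of their sum is no further evidence. Together they had 1283.6 and 1288.6 RPKM in 35S:TEM1 and 865 and 856 in WT, while the other 7 had 247 and 232 against 325 and 220. The groups overlap in that second sum, and GASA6 makes up most of it.

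The balance between members was described as shares of the sum. GASA1 held 51.0% and 54.8% in 35S:TEM1 and 42.2% and 52.0% in WT, GASA4 25.7% and 22.2% against 22.9% and 20.5%, and GASA14 7.15% and 7.72% against 7.61% and 7.02%. The share of GASA6 was 14.1% and 12.7% in 35S:TEM1 and 24.2% and 17.0% in WT, with no overlap. A share also falls when other members rise, and the RPKM of GASA6 itself overlapped between genotypes. GASA1 and GASA4 kept a similar ratio in both genotypes, with 1.99 and 2.47 in 35S:TEM1 and 1.84 and 2.54 in WT. The ratio of GASA4 to GASA6 was 1.82 and 1.76 in 35S:TEM1 and 0.948 and 1.2 in WT. Here the gap between genotypes was wider than the gap within either. For GASA1 to GASA6 the ratio was 3.62 and 4.33 in 35S:TEM1 and 1.75 and 3.06 in WT. There the gap between genotypes was narrower than the gap within either. GASA1 and GASA4 were called higher in these same data, and the differences in these ratios were not tested.

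**Figure D4:**
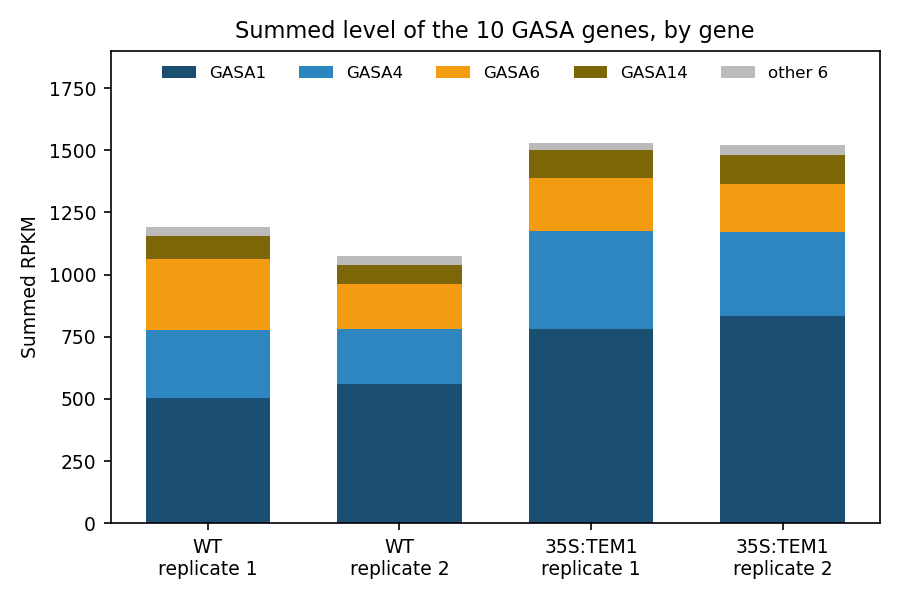
Summed RPKM of the 10 GASA genes in each sample, stacked by gene, with the 6 less abundant genes together in grey. The sum is 1189.8 and 1076.9 in the WT samples and 1530.8 and 1520.5 in the 35S:TEM1 samples, and the taller bars have larger GASA1 and GASA4 sections.

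GA3OX1 moved the other way. It had 1.74 and 1.57 RPKM in 35S:TEM1 and 6.23 and 8.05 in WT, and its log2 fold change was -1.61 ± 0.14 SE (limma adjusted p = 0.00126). It was called lower in each of the 12 alternatives in which it was tested. Beside this fall, 3 GASA genes were called higher, and GASA5, GASA6 and GASA9 had slightly lower means in 35S:TEM1 that did not pass, apart from GASA6 without WT replicate 2. No correlation between GA3OX1 and a GASA gene is given, since over 2 samples of each genotype it would restate the difference between genotypes. Gibberellin itself was not measured in these files.

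Other genes of the gibberellin pathway were taken from a list of 32, of which 18 were tested, 6 were called higher, 1 (GA3OX1) lower and 11 did not pass, beside 18.3% higher and 7.37% lower over all tested genes. Under either other scaling 2 were called higher and 2 lower. Their median log2 fold change was 0.36, against 0.12 over all genes. In biosynthesis, GA2, the ent-kaurene synthase, had 11 and 10.5 RPKM in 35S:TEM1 and 5.35 and 6.72 in WT (0.74 ± 0.12 SE, limma adjusted p = 0.009). KAO2, an ent-kaurenoic acid oxidase, had 23.0 and 18.7 against 12.8 and 12.2 (0.68 ± 0.12 SE, limma adjusted p = 0.01). Both calls were lost without 35S:TEM1 replicate 1 (adjusted p = 0.0564 and 0.0586).

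Both tested genes of gibberellin inactivation were called higher, where 18.3% of all tested genes were. Of the 7 listed, the other 5 lay below the filter and were not tested. Among these, some were higher and some lower in both 35S:TEM1 samples. GA2OX2 had 6.29 and 8.29 RPKM against 3.52 and 4.99 (0.66 ± 0.18 SE, limma adjusted p = 0.0437), and GA2OX6 had 2.07 and 3.09 against 0.957 and 1.3 (0.74 ± 0.19 SE, limma adjusted p = 0.0331). Of 11 genes for receptors, F-box proteins, DELLA proteins and their modifier SPY, 2 were called higher. This is 18.2%, close to the 18.3% over all tested genes. They were the receptor gene GID1A (0.37 ± 0.10 SE, limma adjusted p = 0.0394) and SLY1, an F-box gene needed for DELLA degradation (0.37 ± 0.10 SE, limma adjusted p = 0.0372). The 5 DELLA genes did not pass, with values from -0.37 for RGL1 to 0.50 for RGL3. GA2OX2, GA2OX6, GID1A and SLY1 lost their calls with equal sample medians (adjusted p = 0.101, 0.0611, 0.143 and 0.146), with quantile normalization (0.109, 0.0807, 0.117 and 0.139) and with no filter on low values (0.0858, 0.0543, 0.0561 and 0.0556). These 4 calls also ended without WT replicate 1 (adjusted p = 0.105, 0.0828, 0.0679 and 0.0964) and without 35S:TEM1 replicate 2 (0.188, 0.158, 0.0702 and 0.14). With 35S:TEM1 replicate 1 left out, those of GA2OX2, GID1A and SLY1 ended (0.059, 0.246 and 0.189), and without WT replicate 2 that of GID1A (0.0794). With no mean-variance trend those of GA2OX2 and GID1A ended (0.0534 and 0.0571).

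Genes known to be induced by DELLA proteins went both ways. Of 7 listed, 6 were tested, 2 rose, 2 fell and 2 did not pass, beside 18.3% called higher and 7.37% lower over all tested genes. SCL3, a GRAS-family regulator of gibberellin responses, had 7.29 and 6.64 RPKM in 35S:TEM1 and 3.05 and 3.86 in WT (0.84 ± 0.13 SE, limma adjusted p = 0.0073). AT3G11280, annotated as a MYB-like protein, rose by 0.50 ± 0.08 SE (limma adjusted p = 0.00785). The bHLH genes AT2G31730 and AT5G50915 fell by 1.2 ± 0.12 and by 1.08 ± 0.19 SE (limma adjusted p = 0.00166 and 0.0116). The call of AT3G11280 was lost without 35S:TEM1 replicate 2, with a log2 fold change of 0.47. That of AT5G50915 was lost without 35S:TEM1 replicate 1, with a log2 fold change of -0.90. Each of these fits left only 1 sample of 35S:TEM1. The group as a whole had a median log2 fold change of -0.15, with no common direction.

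**Figure D5:**
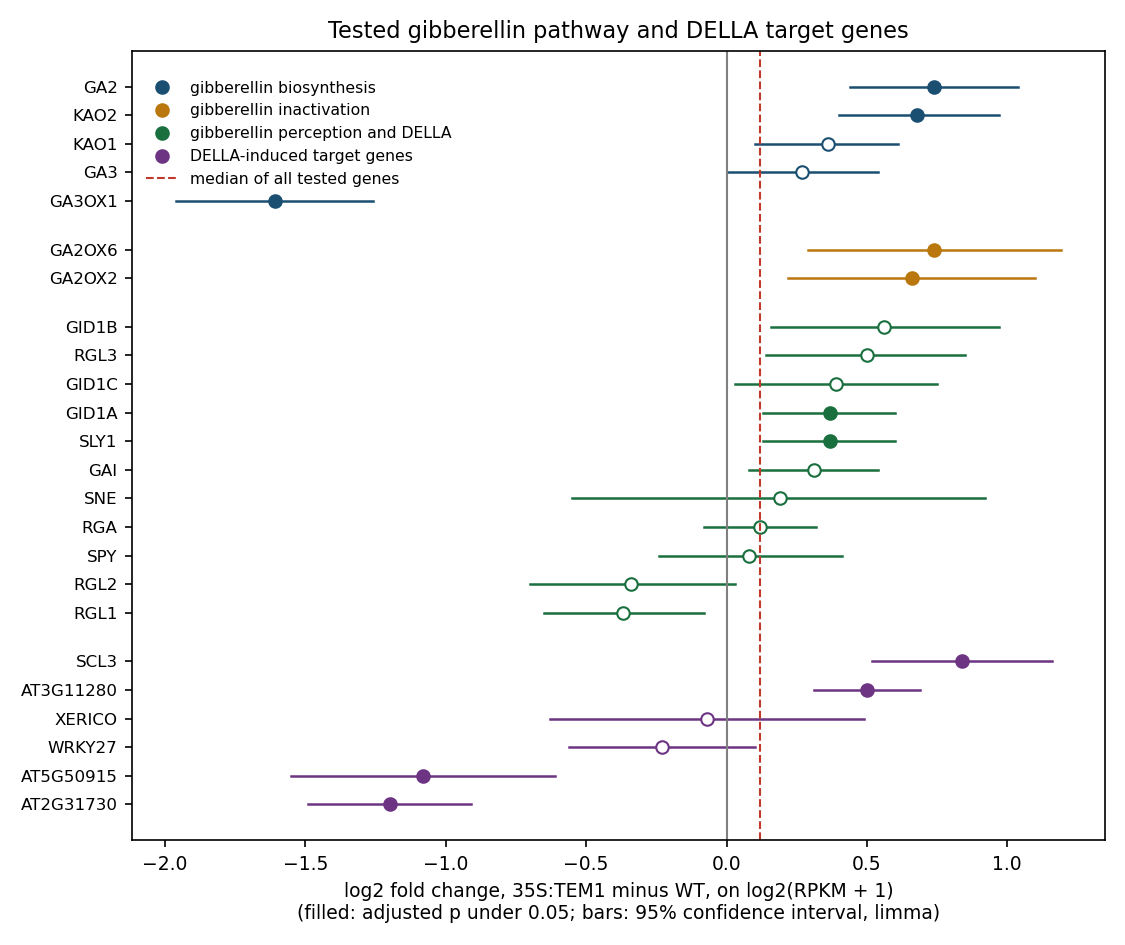
Log2 fold change, 35S:TEM1 minus WT, of tested genes of gibberellin biosynthesis, inactivation, perception and DELLA-induced targets, with 95% confidence intervals from limma. Filled points passed an adjusted p of 0.05 and the dashed line is the median of all tested genes (0.12). GA3OX1, AT5G50915 and AT2G31730 are the 3 genes called lower.

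The family has further members outside the 10. Of 5 such loci annotated as gibberellin-regulated family proteins, each with 12 cysteine codons in the last stretch, 3 (AT2G39540, AT2G30810 and AT1G10588) were listed at 0 in all samples. AT2G14900 had 21.2 and 24.2 RPKM in 35S:TEM1 and 13.8 and 9.38 in WT, with no overlap. Its log2 fold change of 0.93 ± 0.17 SE (limma adjusted p = 0.0129) was above that of GASA1, with overlapping 95% confidence intervals (0.51 to 1.36 and 0.39 to 0.82). The call was lost without 35S:TEM1 replicate 2 (0.84, adjusted p = 0.0636). AT3G10185 had 6.03 and 7.26 against 5.69 and 3.19 and did not pass (0.53 ± 0.23 SE, limma adjusted p = 0.137), except without WT replicate 1 (0.86, adjusted p = 0.0112). A gene of the opposite strand, AT3G10180, covers 30.6% of its exon length in the reference.

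Letters known to be bound by RAV proteins were looked for in the 250 bases before the annotated start of each gene, on both strands. CAACA, the letters of the AP2 domain, occurred in 5 of the 10 (GASA1, GASA6, GASA9, GASA10 and GASA11), against 47.3% of 26711 protein-coding genes. CACCTG, the letters of the B3 domain, occurred in 0 of the 10, against 2.55%. TAACAA, letters of a gibberellin-response element known from cereals, occurred in 3 (GASA9, GASA10 and GASA11), against 30.8%. No motif contains another, and the CAACA match of GASA10 overlaps a TAACAA match. Of the 3 members that rose, GASA1 holds CAACA, and GASA4 and GASA14 hold none of the 3 motifs in this window, so the promoters are not printed. GA3OX1, known to be repressed by TEM1, also holds none of the 3 motifs in this window. Whether TEM1 binds any of these genes was not tested.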

How the data were processed

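Transcript levels were measured in 4 samples, 2 of 35S:TEM1 and 2 of WT. The authors deposited 1 RPKM value per locus and sample. Tools listed without their roles, per the submitters' processing notes, were STAR, Cuffdiff 2.2.1, bcl2fastq 1.8.4 and FastQC, and the build was TAIR10. Not given in the sources used here were the counter, the annotation, the strand setting and the read filters. Library totals of 20.2 to 30.4 M reads were estimated from the smallest values, and reads of a gene are RPKM times the reference exon length times that total, except for GASA2, GASA3 and GASA10, where whole reads within 0.03 of a read were solved for. Floors and counting errors cover counting error only.

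Values were analysed as log2(RPKM + 1), which understates changes of low genes, with limma 3.58.1 in R 4.3.3 (mean-variance trend, 2-sided, Benjamini-Hochberg adjustment over 17746 genes with a mean RPKM of at least 1), and the procedure was tested on simulated data. Gene names were set with the gene lists. The RefSeq product of GASA6, GASA9, GASA10, GASA11 and GASA14 is given only as a gibberellin-regulated family protein. Coding sequences (longest annotated coding sequence per gene) and promoters came from RefSeq's TAIR10.1 by locus identifier, which matched 31912 of 32678 loci (97.7%). No genome coordinates are printed, as TAIR10.1 is not the build named by the submitters. Identities came from global alignments in Biopython 1.88. The members and lists were chosen with earlier results of these data known. Genes named are all 10 members, the 5 further family genes, TEM1, GA3OX1 and every gene of the gibberellin and DELLA target lists past the threshold. RGL1 and RGL3 are named as the ends of a range. Alternatives were other pseudocounts, filters, scalings and variance settings, replicate number as a block, and each sample left out.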

Additional observations from a re-analysis of the deposited data

How the results depend on the processing

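Over 13 alternatives the log2 fold changes of GASA1, GASA4 and GASA14 stayed positive, and GA3OX1 stayed called lower wherever it was tested. The count of GASA genes called higher, 3 in the main setting, was 1 with equal sample medians and 1 to 3 with 1 sample left out (1 without either 35S:TEM1 replicate), and the count called lower was 0 to 1 (GASA6 without WT replicate 2). With 1 sample left out, GASA5 ran from -0.31 to 0.14 (positive without 35S:TEM1 replicate 2), GASA6 from -0.50 to 0.15 (positive without WT replicate 1) and GASA9 from -0.37 to 0.19 (positive without 35S:TEM1 replicate 1). Each of these has 1 sample fewer, and the cause was not tested further. The ratio of the summed level was 1.2 with equal sample medians. Over all genes, those called higher and lower, 3255 and 1308 in the main setting, were 1930 and 2431 with equal sample medians, and 2021 and 1862 after quantile normalization. They were 1331 to 2955 and 545 to 1417 with 1 sample left out, the lowest of each without 35S:TEM1 replicate 1. The median of all tested genes moved from 0.12 to -0.03 and -0.01 under the other scalings. Of the gibberellin pathway, 6 higher and 1 lower, 2 were higher and 2 lower under either other scaling (equal sample medians or quantile normalization). Its higher genes numbered 1 to 5 with 1 sample left out (1 when 35S:TEM1 replicate 1 was left out, and 3 when WT replicate 1 or 35S:TEM1 replicate 2 was). The lower count was 2 with no filter on low values (loci at 0 in all samples left out) and 0 at a minimum mean RPKM of 5, where GA3OX1 was not tested.

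The replicate numbers do not pair the samples by the labels. Deviations of same-numbered samples correlated at 0.318 across genes, with 2 pairs only. With the replicate block, 3 GASA genes were higher, 11 pathway genes were higher and 2 lower, and 4321 and 1801 of all genes. Low levels limit GASA2, GASA3, GASA10 and GASA11, for which no difference could be detected.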
